A study of Mus musculus with 6 samples.

Results

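The genes described here are 32 heat shock and chaperonin genes, taken by symbol from the 23453 gene rows of a deposited table of exon read counts: 7 of the HSP70 and HSP110 family, 7 of the HSP90 machinery, 5 J-domain and BAG cochaperones of HSP70, 2 small heat shock proteins, the 2 subunits of the mitochondrial chaperonin, the heat shock factor Hsf1 and the 8 CCT subunits. Membership goes by symbol and not by a measured value, although earlier results of these data were known when the list was drawn up. Splenocytes of wild-type OT1 mice on C57BL/6, in which most CD8 T cells bear 1 receptor, specific for an ovalbumin peptide, were stimulated with that peptide for 48 h and then kept in FCM or TCM for 8 h. What the letters FCM and TCM stand for is not spelled out in the labels. They call all 6 samples cytotoxic T lymphocytes, with 3 libraries titled Vehicle that received FCM and 3 titled TCM. No purification, sex, age or animal is named for any library, so p-values measure a spread between libraries that may be technical only.

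The deposited tables contradict each other on which libraries are which. All 6 columns of the normalized table equal, up to 1 factor each, the column of counts titled with the opposite group and numbered alike. All directions below follow the titles of the count table, and under the titles of the normalized table each of them turns round. Total counts ran from 17166687 to 25789381 per library, and replicate 1 of each group stood apart from replicates 2 and 3 (chi-square per gene 61.7 to 108 in pairs that hold a replicate 1, and 5.09 and 7.29 in the pairs that do not). Transcripts of other spleen cells moved with the groups. The 12 neutrophil markers summed to 8179 to 12718 CPM (counts scaled to library size) in FCM and to 1150 to 2197 CPM in TCM (11 of 12 lower). Summed macrophage and monocyte markers lay at 848 to 1084 CPM in FCM against 220 to 266 CPM in TCM (7 of 9 tested lower, 1 higher), and B cell markers at 1744 to 2101 against 920 to 1113 CPM (6 of 7 lower). The 11 T cell markers, which include the effector genes Gzmb, Prf1 and Ifng, summed to 2009 to 2235 CPM in FCM and 4905 to 6403 CPM in TCM. Of these 11, however, 3 were higher, 2 were lower and 6 did not pass (median log2 fold change 0.06). NK cell markers summed to 487 to 749 against 743 to 1370 CPM, but 4 of the 6 tested were lower and 1 was higher (median log2 fold change -0.92). Dendritic cell markers summed to 34.8 to 37.9 against 42.1 to 51.5 CPM, but 3 of the 6 tested were lower and 1 was higher (median -1.02). Erythroid and platelet markers summed to 11.1 to 13.0 against 5.32 to 7.19 CPM (4 of 5 tested lower). Of the defining markers, Xcr1 (dendritic cells), Hba-a1 and Hba-a2 were at 0 in all TCM libraries, and Hba-a2 also in all FCM libraries. In bulk RNA, fewer cells of a type and less RNA per cell cannot be told apart, and the part of these other cells in the results below was not tested.

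Heat shock proteins are molecular chaperones. HSP70 binds short hydrophobic stretches of unfolded proteins and is driven through its ATP cycle by J-domain proteins and by nucleotide exchange factors of the HSP110 and BAG families. HSP90 receives nearly folded clients such as kinases and steroid receptors from HSP70, and the CCT (TRiC) ring encloses actin and tubulin while they fold. Many of these genes are induced by heat shock factor 1, which binds inverted repeats of the 5-base unit nGAAn (the heat shock element), whereas HSP90 beta, the constitutive HSP70 and CCT are made in growing cells without stress, including activated T cells.

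Sequences around the starts of these genes were searched for the heat shock element because it is the site that the induced members are known to share. RefSeq start windows on GRCm38.p6, from 250 bases before to 50 bases after each start, were at hand for 25 of the 32 members, in 33 windows. Cct4, Cryab, Hsf1, Hsp90aa1, Hsp90ab1, Hspa8 and Hspa9 had no entry. The element of 3 units in a row, GAANNTTCNNGAA on either strand with overlapping matches allowed, lay in the windows of 4 of the 25 members, Hsph1, Chordc1, Hspd1 and Hspe1. The same letters occur in 0.662% of all 27025 genes with a window and in 0.573% of the 9253 tested genes with one. A match is a description of the letters in this window and not evidence of binding. The stretches of 30 bases that hold these matches are written 5′ to 3′ on the strand of the gene, with every matched base in capitals.
Hsph1, chr5:149636287-149636316, minus strand: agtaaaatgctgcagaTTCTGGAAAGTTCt
Chordc1, chr9:18292259-18292288, plus strand: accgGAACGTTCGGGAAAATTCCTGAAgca
Hspe1 and Hspd1, chr1:55088053-55088082, plus strand: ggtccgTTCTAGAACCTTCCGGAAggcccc

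Hsph1 has windows at 2 RefSeq starts, and the match lies 36 to 48 bases after one (149636336) and 15 to 27 bases after the other (149636315). Chordc1 holds 3 overlapping matches around its start, and the stretch between Hspd1 and Hspe1 holds 2, from 72 to 89 bases before the start of Hspe1. Hspe1 starts at 55088148 on the plus strand, and Hspd1 has 2 RefSeq starts on the minus strand. From the start of Hspd1 at 55087932, 215 bases separate the genes, and the windows share 285 of 300 bases with this element in them. From its other start, at 55088243, the transcripts overlap, and that window shares 4 bases with the Hspe1 window and holds no 3-unit element. The log2 fold changes of TCM over FCM of these 4 genes were -1.95 for Hsph1, -0.05 for Chordc1, 0.12 for Hspd1 and 0.83 for Hspe1, of which those of Chordc1 and Hspd1 did not pass the test.

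The shorter 2-unit form GAANNTTC lay in the windows of 10 of 25 members (40%, against 9.04% of all genes). These were Hspb1, Hspa1a, Hspa1b, Hspe1, Hspd1, Chordc1, Cct2, Bag3, Dnaja1 and Hsph1. Of them, Hspb1, Hspa1a and Hspe1 were higher in TCM, Hsph1 and Dnaja1 were lower, and the others did not pass. The region before the start is shown for Hspb1, Hspa1a and Hspa1b. Hspb1 and Hspa1a were chosen as the members with low counts that were higher in TCM. Hspa1b was added because it can barely be told apart from Hspa1a in this region. Capitals mark GAANNTTC. Of the 250 bases before the start, 247 are identical between Hspa1a and Hspa1b (98.8%).
Hspb1, chr5:135887669-135887918, plus strand: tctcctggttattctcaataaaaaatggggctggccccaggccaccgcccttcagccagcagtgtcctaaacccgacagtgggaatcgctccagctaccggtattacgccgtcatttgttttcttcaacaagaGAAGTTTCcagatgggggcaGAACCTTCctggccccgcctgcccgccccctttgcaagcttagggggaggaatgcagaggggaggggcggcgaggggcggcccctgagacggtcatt
Hspa1a, chr17:34972157-34972306, minus strand: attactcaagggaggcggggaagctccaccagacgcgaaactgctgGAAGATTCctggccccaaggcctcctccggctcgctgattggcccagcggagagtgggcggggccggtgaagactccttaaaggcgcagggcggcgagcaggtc
Hspa1b, chr17:34959239-34959388, minus strand: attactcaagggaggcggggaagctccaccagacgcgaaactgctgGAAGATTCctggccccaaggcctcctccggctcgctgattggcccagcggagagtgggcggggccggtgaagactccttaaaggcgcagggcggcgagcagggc

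In Hspb1 the matches lie 110 to 117 and 90 to 97 bases before the start, and in Hspa1a and Hspa1b a single match lies 97 to 104 bases before it. The tail-to-tail form TTCNNGAA was in the windows of 8 of 25 members (32%, against 9.6% of all genes). For comparison, the general promoter letters CCAAT were in 48% of members and 41.1% of all genes, GGGCGG in 92% and 38.2%, and TATAAA in 4% and 15.7%. GGGCGG also occurred in 68.5% of the tested genes, which are those expressed here.

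Of the 32 genes, 31 had enough counts to be tested for a difference between TCM and FCM. The exception was Cryab, alpha-B crystallin, a small heat shock protein of lens and muscle, with 2, 4 and 4 counts in FCM and 0, 1 and 1 in TCM. Of the 31, 12 were lower in TCM at an adjusted p under 0.05, 4 were higher and 15 did not pass. In all, 51.6% of the members tested passed, against 58.8% of the 12423 genes tested. The share lower was 38.7% against 30%, and the share higher was 12.9% against 28.8%. The median log2 fold change of the tested members was -0.25, beside -0.02 for all genes tested, and 22 of the 31 values were below 0. Groups were separate, with no overlap in CPM, in 19 of 31 members (61.3%, against 64.2% of all genes). They were separate with TCM the lower group in 16 of the 31 members, beside 4171 of the 12423 genes tested (33.6%). Only Hsph1 and Hspa8 were called and at least 2-fold lower (10.5% of all genes were).

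**Figure D1:**
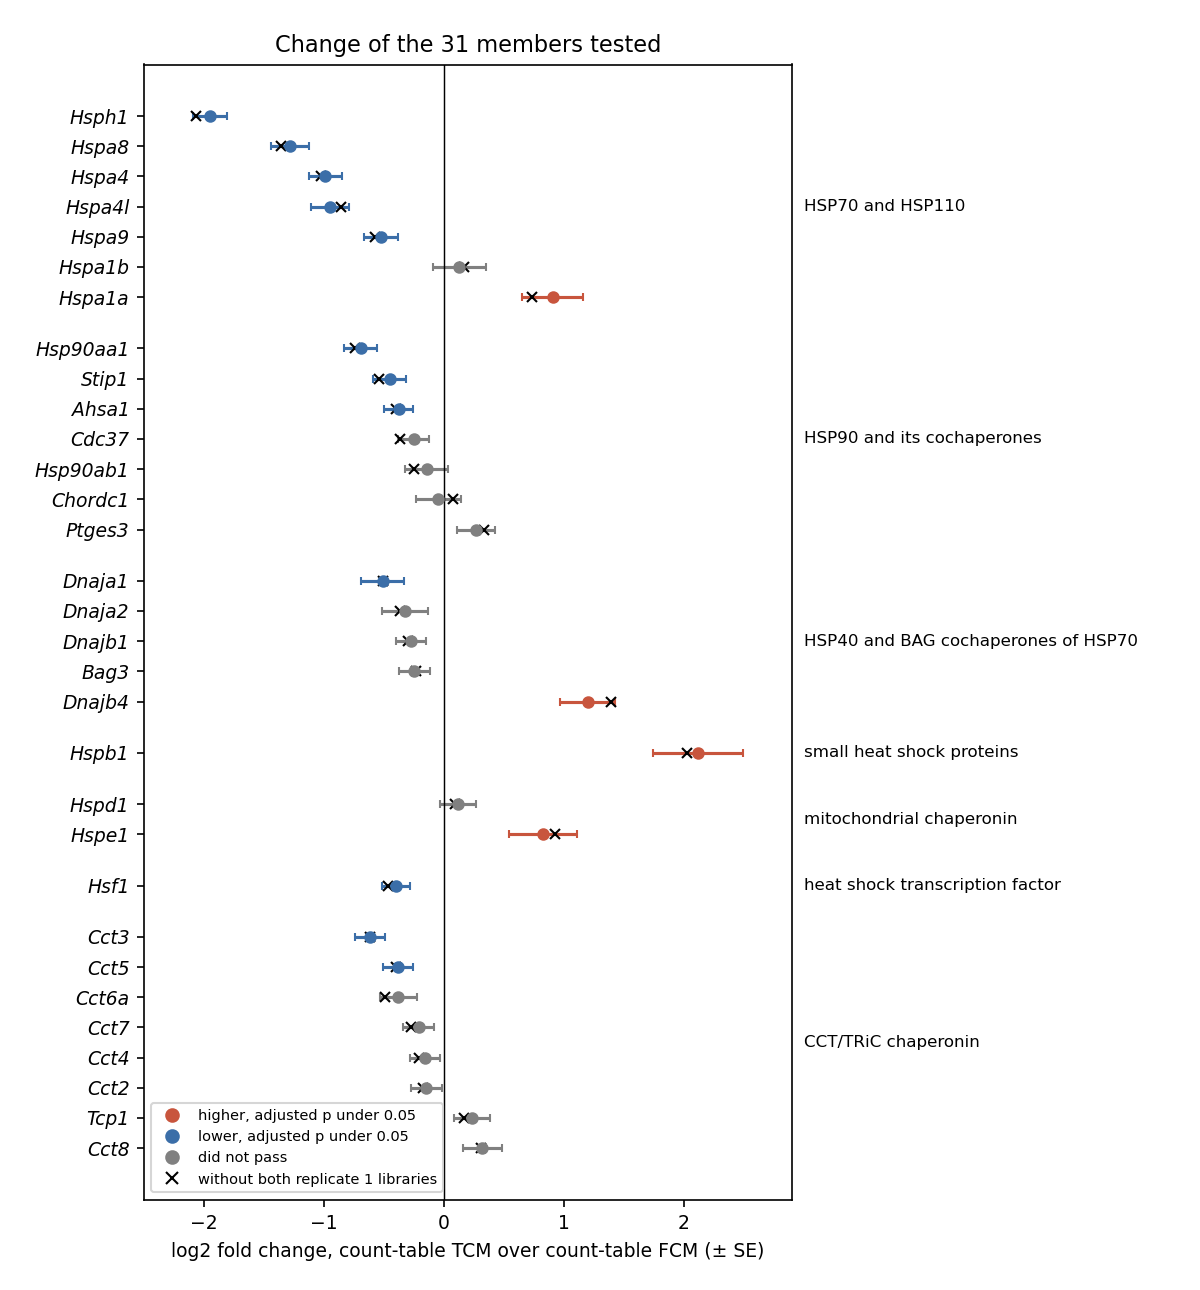
Log2 fold change of TCM over FCM for each of the 31 tested members, grouped by role, with bars for 1 standard error, colour for direction where the adjusted p is under 0.05 (grey where it is not) and a cross for the value without the replicate 1 libraries of both groups. Hsph1 has the lowest value (-1.95) and Hspb1 the highest (2.12), while the HSP90 and CCT genes lie between -0.69 (Hsp90aa1) and 0.32 (Cct8).

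The largest decreases were in the HSP70 and HSP110 family, where 5 of 7 genes were lower in TCM, 1 was higher and 1 did not pass (median log2 fold change -0.95). The share lower was 71.4%, beside 30% of all genes tested. Hsph1 encodes HSP105, an HSP110 protein that exchanges the nucleotide of HSP70, and lies at chr5:149614287-149636376 (GRCm38). It had 142, 146 and 134 CPM in FCM replicates 1 to 3 and 41.6, 31.7 and 35.5 CPM in TCM. The highest TCM library lay far below the lowest FCM library. The mean fell from 140 ± 5.91 to 36.2 ± 4.98 CPM (SD, n = 3 each), a 3.87-fold decrease (log2 fold change -1.95 ± 0.14 SE, adjusted p = 7.87e-06). Hspa4 and Hspa4l encode the other HSP110-type proteins of the cytosol, and both were lower too. Hspa4 had 206, 189 and 178 CPM in FCM and 106, 86.6 and 95.4 CPM in TCM, with the groups far apart (log2 fold change -0.99 ± 0.14, adjusted p = 0.000362). Hspa4l was expressed at a lower level, with 24.0, 19.1 and 16.2 CPM against 11.0, 9.82 and 9.83 CPM (log2 fold change -0.95 ± 0.16, adjusted p = 0.001). Thus all 3 HSP110-type genes were about 2-fold to 4-fold lower in TCM.

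Hspa8 encodes HSC70, the constitutive HSP70 and the main cytosolic one in unstressed cells, from chr9:40800984-40810087. It had 490, 610 and 541 CPM in FCM and 222, 203 and 250 CPM in TCM. The lowest FCM library was well above the highest TCM library. The mean fell from 547 ± 60.3 to 225 ± 23.7 CPM, a 2.43-fold decrease (log2 fold change -1.28 ± 0.16, adjusted p = 0.000187). Hspa9 encodes mortalin, the HSP70 of the mitochondrial matrix, and had 373, 346 and 335 CPM in FCM against 272, 225 and 235 CPM in TCM. These groups did not overlap, and the decrease was 1.44-fold (log2 fold change -0.53 ± 0.14, adjusted p = 0.012). The Hspa9 call was lost without TCM replicate 2 (adjusted p = 0.0702) or TCM replicate 3 (0.0521).

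The stress-inducible pair Hspa1a and Hspa1b was measured at very low levels. Hspa1a had 17, 23 and 30 counts in FCM and 35, 31 and 25 in TCM, which is 0.771, 0.861 and 1.16 CPM against 1.86, 2.03 and 1.40 CPM. The CPM did not overlap, and Hspa1a was 1.87-fold higher in TCM (log2 fold change 0.91 ± 0.25, adjusted p = 0.0136). Hspa1b, the neighbouring copy, had 48, 62 and 79 counts in FCM and 42, 41 and 60 in TCM, with overlapping CPM (log2 fold change 0.13 ± 0.22, adjusted p = 0.634). The call for Hspa1a was lost without TCM replicate 2 (log2 fold change 0.81, adjusted p = 0.0576) and with scaling by library totals alone (0.71, adjusted p = 0.0616). Of the 2918 stretches of 50 bases in the Hspa1a transcript, 1716 (58.8%) also occur in Hspa1b, so the split of reads between the copies is uncertain. Whether reads that match both copies were counted is not given, so the level of the pair is uncertain too. The pair summed to 3.45 ± 0.68 CPM in FCM and 4.53 ± 0.376 CPM in TCM, and the groups overlapped, while each TCM library was above the FCM library of its number (exact two-sided permutation p over unpaired libraries = 0.2, adjusted 0.26). With 3 libraries against 3 the smallest p of this test is 0.1, and over 3 pairs an exact sign-flip test could not go below 0.25, so none of the 13 sums and ratios could pass, and their adjusted p ran from 0.186 to 0.6.

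**Figure D2:**
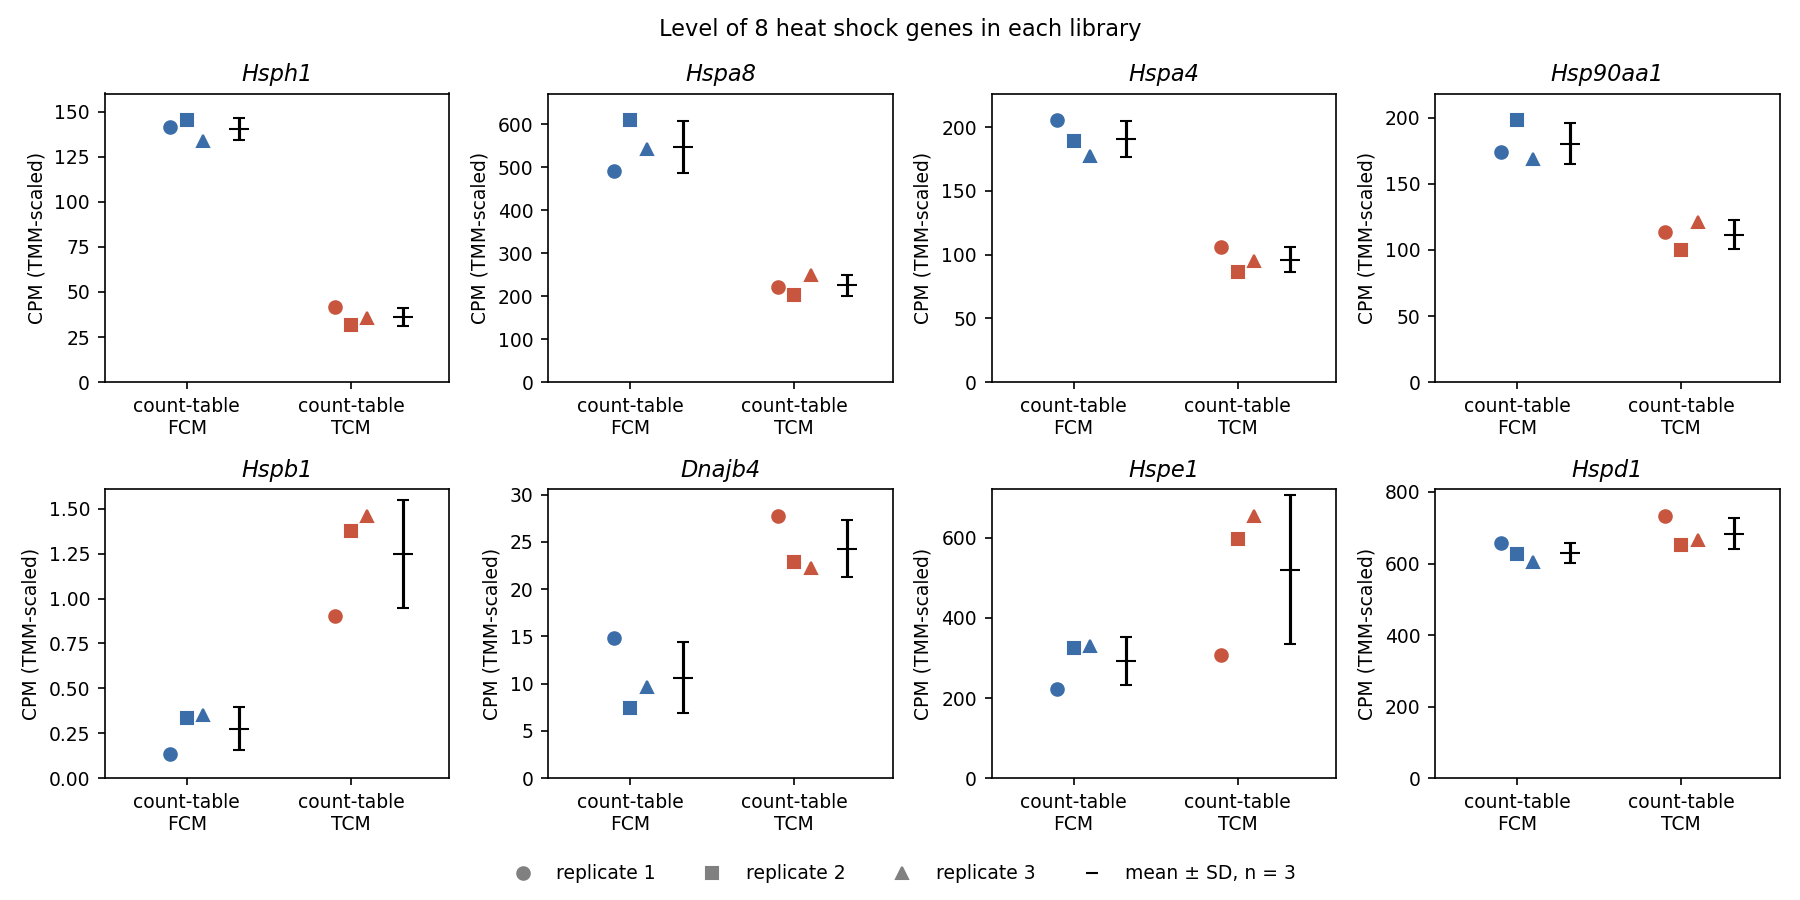
CPM in each library for 8 members, on linear axes from 0 that differ between panels, with the groups as titled in the count table, a marker shape for each replicate number and black bars for mean ± SD (n = 3). Hsph1, Hspa8, Hspa4 and Hsp90aa1 show no overlap between the groups, while the replicate 1 libraries of Hspe1 lie below replicates 2 and 3 in both groups.

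In the HSP90 machinery, 3 of 7 genes were lower in TCM, none was higher and 4 did not pass (median log2 fold change -0.25). The share lower was 42.9%, beside 30% of all genes tested. Hsp90aa1, the stress-inducible HSP90 alpha, had 174, 198 and 169 CPM in FCM and 113, 99.9 and 121 CPM in TCM. All FCM libraries were above all TCM libraries, and the decrease was 1.62-fold (log2 fold change -0.69 ± 0.14, adjusted p = 0.00261). Hsp90ab1, the constitutive HSP90 beta, had 2213, 2247 and 2330 CPM in FCM and 2273, 1897 and 1979 CPM in TCM. Here TCM replicate 1 lay inside the FCM range, and the difference did not pass (log2 fold change -0.14 ± 0.18, adjusted p = 0.515); without the replicate 1 libraries of both groups it was -0.25 with an adjusted p of 0.00591. Per kilobase of transcript, the ratio of Hsp90ab1 to Hsp90aa1 was 16.6, 14.7 and 17.9 in FCM and 26.1, 24.7 and 21.2 in TCM, without overlap (exact permutation p = 0.1, the smallest possible, adjusted 0.186). The ratio was higher in every TCM library than in any FCM library.

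Among the HSP90 cochaperones, Stip1 (HOP), which bridges HSP70 and HSP90, had 176, 168 and 175 CPM in FCM and 141, 112 and 125 CPM in TCM, with no overlap (log2 fold change -0.45 ± 0.14, adjusted p = 0.0182). Ahsa1 (AHA1), which speeds the ATPase of HSP90, had 171, 164 and 170 CPM against 134, 124 and 130 CPM, also with no overlap (log2 fold change -0.38 ± 0.12, adjusted p = 0.0246). Each of these calls was lost when 1 library was left out, in 4 of 6 cases: without FCM replicate 2, FCM replicate 3, TCM replicate 2 or TCM replicate 3, adjusted p was 0.0511, 0.0661, 0.0979 and 0.0645 for Stip1 and 0.0687, 0.0893, 0.109 and 0.0821 for Ahsa1. The kinase adaptor Cdc37 had 96.2 to 108 CPM in FCM and 79.5 to 93.0 CPM in TCM (adjusted p = 0.115), and with the replicate number as a block its adjusted p was 0.026. Ptges3 (p23), which holds HSP90 in its closed state, had 219 to 238 CPM in FCM and 230 to 311 CPM in TCM (log2 fold change 0.27 ± 0.16, adjusted p = 0.166, with the block 0.0292). Chordc1 (morgana), which carries the densest heat shock element shown above, had 124, 81.0 and 84.6 CPM in FCM and 105, 92.8 and 83.2 CPM in TCM, with overlapping groups (adjusted p = 0.842).

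Of the 5 cochaperones that act on HSP70, Dnajb4 was higher in TCM, Dnaja1 was lower and 3 did not pass. Dnajb4, a J-domain protein of the same class as Dnajb1 (chr3:152178511-152210302), had 14.8, 7.41 and 9.69 CPM in FCM and 27.8, 22.9 and 22.2 CPM in TCM. The groups did not overlap, and the mean rose from 10.6 ± 3.78 to 24.3 ± 3.03 CPM, a 2.30-fold increase (log2 fold change 1.20 ± 0.23, adjusted p = 0.00201). Dnajb1 (HSP40), the main heat-inducible J-domain partner of HSP70, had 67.7, 77.5 and 79.7 CPM in FCM and 57.4, 61.4 and 66.9 CPM in TCM. Its groups did not overlap either, but the difference did not pass (log2 fold change -0.28 ± 0.13, adjusted p = 0.0851), whereas with the replicate block the adjusted p was 0.0134 and with library totals alone 0.0246. Dnaja1 had 84.1, 59.5 and 64.8 CPM in FCM and 57.9, 48.5 and 39.7 CPM in TCM (log2 fold change -0.51 ± 0.18, adjusted p = 0.0348). The Dnaja1 call held in 2 of the 6 fits that left out 1 library. Adjusted p was 0.107 without FCM replicate 1, 0.0574 without FCM replicate 3, 0.103 without TCM replicate 2 and 0.124 without TCM replicate 3. The log2 fold change stayed negative in all 6 fits (-0.65 to -0.36). Dnaja1 overlaps Smu1, which went from 34.5 to 27.0 CPM, over 608 bases of gene span.

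Dnaja2 had 160, 118 and 117 CPM in FCM and 131, 95.7 and 88.1 CPM in TCM. The values overlap across replicates, but each TCM library was below the FCM library of its own number (adjusted p = 0.17, with the block 0.00343). Bag3, which couples HSP70 to selective autophagy, had 16.8 to 18.0 CPM in FCM and 13.3 to 17.1 CPM in TCM (adjusted p = 0.127, with the block 0.039).

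Hspb1 (HSP27), a small heat shock protein that holds unfolded proteins in soluble oligomers, had the highest fold change of the members. It had 3, 9 and 9 counts in FCM and 17, 21 and 26 in TCM, or 0.136, 0.337 and 0.349 CPM against 0.905, 1.38 and 1.46 CPM. Every TCM library exceeded every FCM library at a very low level (log2 fold change 2.12 ± 0.37, adjusted p = 0.0013). Per kilobase, Hspb1 ranked 31 of the 32 members in FCM and 28 in TCM.

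The 2 subunits of the mitochondrial chaperonin share the start region printed above. Hspe1 was higher in TCM and Hspd1 did not pass. Hspd1 (HSP60), which forms the folding ring, had 658, 625 and 604 CPM in FCM and 734, 652 and 665 CPM in TCM, with overlapping groups (log2 fold change 0.12 ± 0.15, adjusted p = 0.513). Hspe1 (HSP10), which forms its lid, had 224, 326 and 330 CPM in FCM and 309, 598 and 655 CPM in TCM. The TCM replicate 1 library lay within the FCM range, and replicates 2 and 3 of TCM lay far above it (log2 fold change 0.83 ± 0.28, adjusted p = 0.0319). The call held in only 1 of the 6 fits that left out 1 library, the one without TCM replicate 1 (adjusted p = 0.00087). Adjusted p was 0.0947, 0.0544 and 0.0543 without FCM replicates 1, 2 and 3, and 0.114 and 0.0989 without TCM replicates 2 and 3. The ratio of Hspe1 to Hspd1 per kilobase was 1.06, 1.63 and 1.71 in FCM and 1.32, 2.87 and 3.09 in TCM. Replicate 1 had the lowest ratio in each group, and the groups overlapped, but the ratio was higher in TCM at each of the 3 replicate numbers (exact permutation p over unpaired libraries = 0.3, adjusted 0.355).

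Hsf1, the transcription factor that induces many of these genes, had 55.7, 64.7 and 65.9 CPM in FCM and 45.8, 46.8 and 48.3 CPM in TCM. The groups did not overlap, and the decrease was 1.32-fold (log2 fold change -0.40 ± 0.12, adjusted p = 0.0157). It did not pass without FCM replicate 2 (0.0658), FCM replicate 3 (0.0724) or TCM replicate 2 (0.0637). Activity of HSF1 is set by its trimerization and phosphorylation, which RNA does not show.

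Of the 8 CCT genes, 2 were lower in TCM, none was higher and 6 did not pass (median log2 fold change -0.18). The share lower was 25%, near the 30% of all genes tested. Cct3 had 125, 137 and 125 CPM in FCM and 79.7, 82.0 and 90.4 CPM in TCM, with no overlap (log2 fold change -0.62 ± 0.12, adjusted p = 0.00268). Cct5 had 147, 150 and 149 CPM in FCM and 114, 105 and 123 CPM in TCM, again with no overlap (log2 fold change -0.39 ± 0.13, adjusted p = 0.0258), and did not pass without FCM replicate 2 (0.0854), FCM replicate 3 (0.0853) or TCM replicate 2 (0.125). Of those that did not pass, Cct6a came closest, with 120, 113 and 104 CPM in FCM and 103, 80.5 and 75.4 CPM in TCM (adjusted p = 0.056). The Cct6a difference passed with the replicate block (0.000513) and with the length trend removed (0.0429), and Cct6a overlaps Psph, which went from 38.3 to 18.1 CPM, over 452 bases of gene span. Cct7 had 198 to 205 CPM in FCM and 167 to 184 CPM in TCM, without overlap but short of the threshold (adjusted p = 0.172). Cct2 and Cct4 had log2 fold changes of -0.15 and -0.16 (adjusted p = 0.353 and 0.311). Tcp1 and Cct8 were the CCT genes with values above 0, at 0.23 (adjusted p = 0.209) and 0.32 (adjusted p = 0.121, with the block 0.00576).

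The assembled chaperonin holds each CCT subunit once per ring, while its transcripts were unequal in both groups. Per kilobase, the highest of the 8 was 1.85, 2.16 and 2.16 times the lowest in FCM and 2.27, 2.41 and 2.96 times in TCM. The coefficient of variation over the 8 genes was 19.3%, 25.1% and 25.5% in FCM and 30.0%, 28.7% and 30.1% in TCM. Neither measure overlapped between the groups (exact permutation p = 0.1, the smallest possible, adjusted 0.186, for each). The sum of the 8 was 1253, 1233 and 1168 CPM in FCM and 1208, 1051 and 1091 CPM in TCM, with overlap between the groups but with TCM lower at each of the 3 replicate numbers (exact permutation p over unpaired libraries = 0.2, adjusted 0.26).

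**Figure D3:**
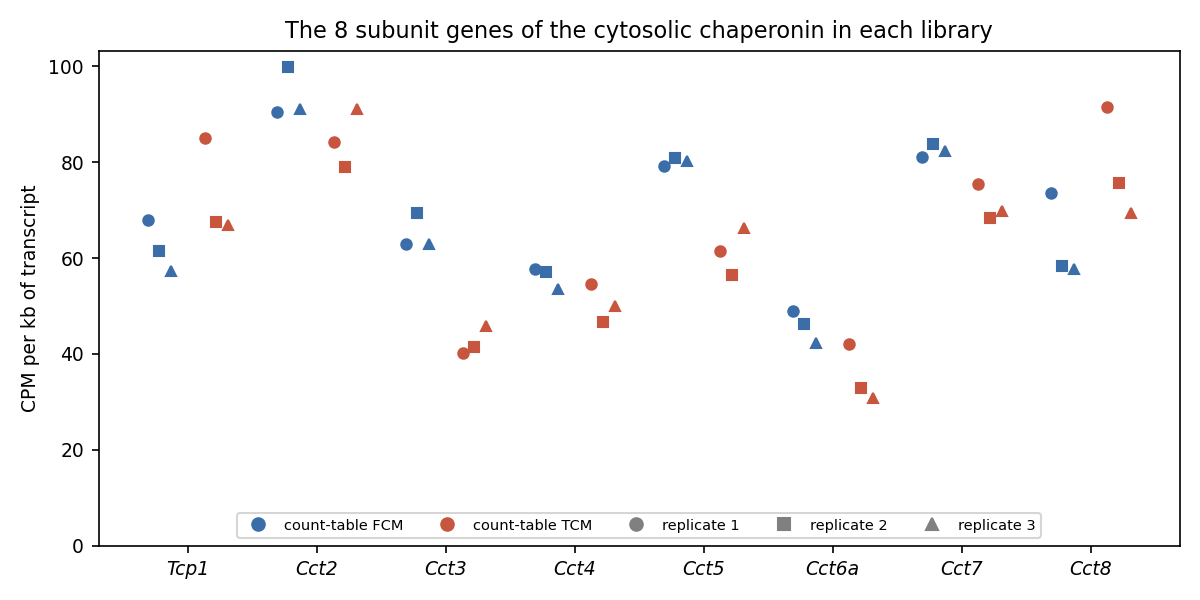
Level of each of the 8 CCT genes in each library, in CPM per kilobase of transcript on a linear axis from 0, FCM in blue and TCM in red, with a marker shape for each replicate number. Cct3 and Cct5 lie lower in all 3 TCM libraries, Cct8 and Tcp1 do not, and the ratio of the highest to the lowest gene is larger in each TCM library than in any FCM library.

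Compared per kilobase of transcript, the members ran from 0.118 (Cryab) to 898 (Hsp90ab1) in FCM and from 0.0363 to 813 in TCM. Hsp90ab1 was the highest in both groups, at 898 ± 23.8 CPM per kilobase in FCM and 813 ± 78.6 in TCM. Hspe1 ranked 2, at 379 ± 77.7 and 673 ± 240, and Hspd1 ranked 3, at 260 ± 11.3 and 282 ± 18.1. The TCM means of Hspe1 and Hsp90ab1 thus lay within 1 SD of Hspe1. That SD was wide, with Hspe1 at 309 CPM in TCM replicate 1 and at 598 and 655 CPM in replicates 2 and 3. Hspa8 ranked 4 in FCM, at 228 ± 25.2, where its SD overlapped that of Hspd1, and 6 in TCM at 93.9 ± 9.88, level with Ahsa1 (93.9 ± 3.75). Hsph1 went from rank 20 (36.9 ± 1.55) to rank 25 (9.53 ± 1.31). The lowest in both groups was Cryab. As counted, the inducible Hspa1a (0.314 and 0.595) and Hspa1b (0.899 and 0.986) lay more than 2 orders of magnitude below Hspa8 in FCM.

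**Figure D4:**
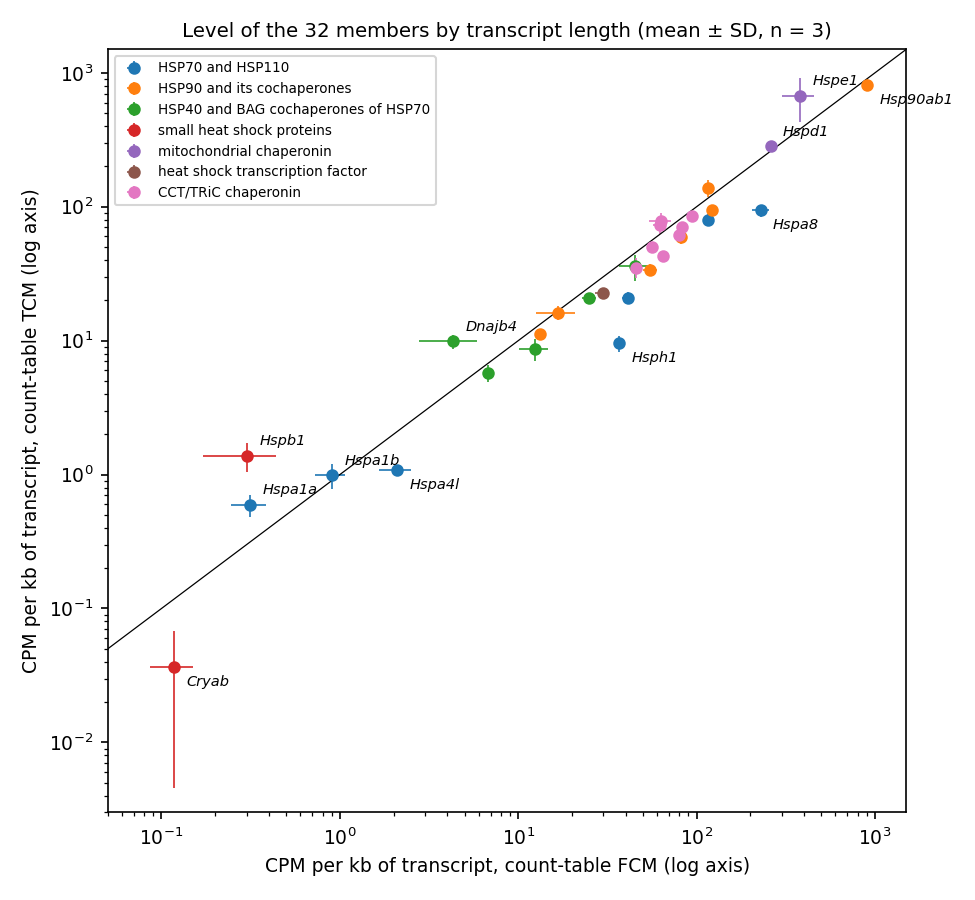
Mean level of each of the 32 members in TCM (vertical) against FCM (horizontal), in CPM per kilobase of transcript on log axes, coloured by role, with SD over 3 libraries and a line where both groups are equal. Hsp90ab1, Hspe1 and Hspd1 are the 3 highest in both groups, Hspa8 and Hsph1 lie below the line, and Cryab, Hspa1a, Hspa1b and Hspb1 are among the lowest.

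Summed over the 31 tested members, transcripts took up 6945, 7043 and 6941 CPM in FCM and 6331, 5852 and 6160 CPM in TCM. All FCM libraries were above all TCM libraries (6976 ± 58.0 against 6114 ± 243 CPM, exact permutation p = 0.1, adjusted 0.186). Hsp90ab1 alone was 32.4% ± 0.97 of this sum in FCM and 33.5% ± 2.11 in TCM.

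Transcript length moved with the comparison over all genes. With the 11683 tested genes that have a gene model cut into 5 equal classes from shortest to longest, the median log2 fold change was 0.46, 0.11, -0.05, -0.20 and -0.35. Hspe1 and Hspb1 are short, while Hspa4l and Dnaja1 are long. With this trend removed, Hspe1 stood at 0.19 (adjusted p = 0.588) and Dnaja1 at -0.26 (0.245), so neither passed. Hspb1 kept 1.55 (0.00769), Hspa4l -0.56 (0.0152), Hsph1 -1.81 (1.18e-05) and Hspa8 -1.33 (0.000157). In that fit 12 members were lower, beside 26.6% of all genes, and 3 were higher, beside 26%.

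**Figure D5:**
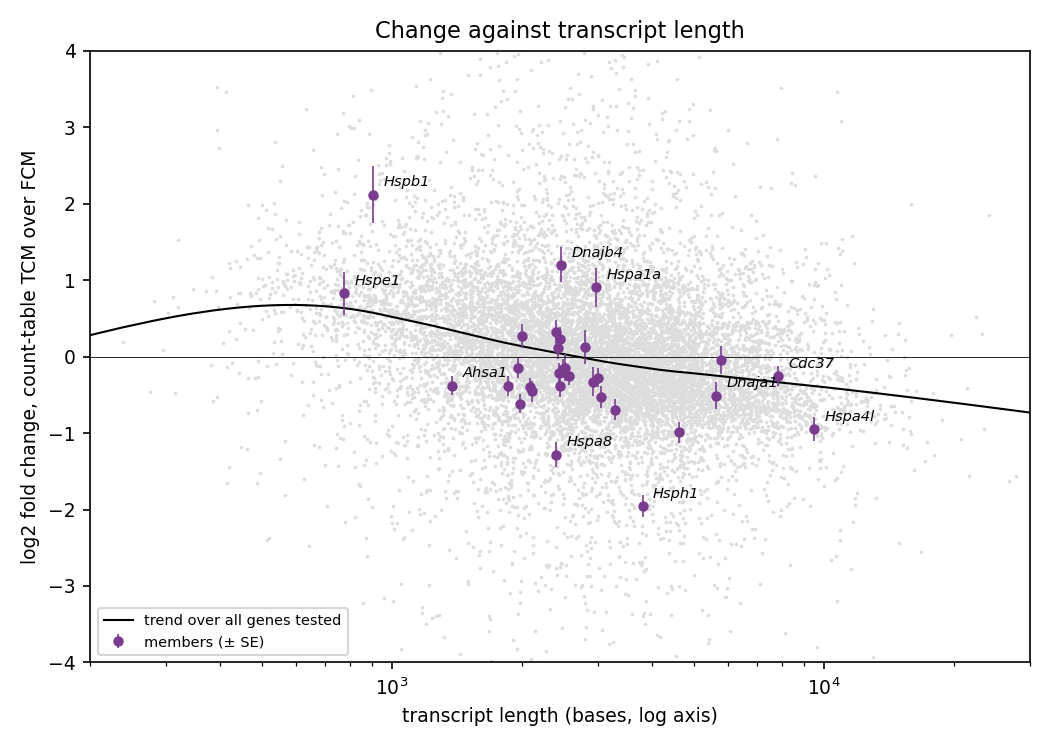
Log2 fold change of TCM over FCM against transcript length on a log axis, for tested genes with a gene model (grey; the few outside the axes are not drawn), the trend over them (line) and the 31 tested members (purple, ± SE), some by name. Hspe1 lies near the line, while Hsph1 and Hspa8 lie far below it.

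Of the 16 members called, 8 passed in each of the 6 fits that left out 1 library, and the same 8 passed under every alternative in which they could be tested. They were Hsph1, Hspa8, Hspa4, Hspa4l, Hsp90aa1, Dnajb4, Hspb1 and Cct3. All 16 kept their direction under those alternatives, which kept the titles of the count table. With the replicate number as a block, 17 members were lower and 6 higher, against 12 and 4 without it. Without the replicate 1 libraries of both groups, 19 were lower and 6 higher. Calls over all genes rose in both fits as well. Of 12423 genes, 4594 were lower and 4509 higher with the block, against 3726 and 3584 without it. Without the replicate 1 libraries, 4771 were lower and 4566 higher of 12585.

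Other genes of the same systems were counted by list. Of 96 tested genes on 7 further lists, 29 were higher in TCM, 19 were lower and 48 did not pass (median log2 fold change 0.03), beside 28.8% and 30% of all genes. With scaling by library totals alone, 17 were higher and 22 lower. With the length trend removed, 21 were higher and 19 lower, beside 26% and 26.6% of all genes. Among 23 other HSP70 system genes, 4 were higher and 6 lower (0 and 7 with library totals alone). Dnajc7, a J-domain protein that binds both HSP70 and HSP90, had 142 ± 8.30 CPM in FCM and 51.0 ± 5.13 CPM in TCM (log2 fold change -1.48 ± 0.13, adjusted p = 2.72e-05), and Dnajb14, a J-domain protein of the endoplasmic reticulum membrane, had 5.40 ± 0.191 and 3.18 ± 0.58 CPM (-0.75 ± 0.17, adjusted p = 0.0042). The Dnajb14 call was lost with the length trend removed (log2 fold change -0.37, adjusted p = 0.0895). Among 22 other HSP90 cochaperones, 4 were higher and 7 lower (1 and 8 with library totals alone). Nudcd2 rose from 53.6 ± 4.01 to 262 ± 43.7 CPM, a 4.90-fold increase (log2 fold change 2.29 ± 0.17, adjusted p = 8.1e-06), and the phosphatase Ppp5c rose from 92.5 ± 3.71 to 143 ± 2.88 CPM (0.63 ± 0.12, adjusted p = 0.00183). Ppp5c fell short of the threshold with library totals alone (0.42, adjusted p = 0.0515).

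Of 10 other heat shock factors and regulators, 2 were higher and 1 lower. Hsbp1, which binds the trimerization domain of HSF1, rose from 62.8 ± 7.32 to 118 ± 23.7 CPM (log2 fold change 0.91 ± 0.18, adjusted p = 0.00201), the opposite direction to Hsf1. With the length trend removed, the log2 fold change of Hsbp1 was 0.50 (adjusted p = 0.0386). Hsf4 rose at a low level, from 0.478 ± 0.0773 to 1.12 ± 0.298 CPM (adjusted p = 0.00899). Both tested genes of the other small heat shock protein list were higher, as Hspb1 was: Hspb6 went from 2.10 ± 0.534 to 5.28 ± 0.199 CPM (log2 fold change 1.32, adjusted p = 0.000473) and Hspb11, an intraflagellar transport protein despite its symbol, from 12.2 ± 2.74 to 41.4 ± 14.8 CPM (1.76, adjusted p = 0.000698).

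Prefoldin hands unfolded actin and tubulin to CCT. Of 11 tested prefoldin and CCT cofactor genes, 6 were higher in TCM (54.5%, beside 28.8% of all genes tested). None was lower, and all 11 values were above 0 (median log2 fold change 0.61). These genes are mostly short, and with the length trend removed, as with library totals alone, 4 were higher and none was lower. Pdcl and Pdcl3, phosducin-like proteins that bind CCT, rose from 19.7 ± 1.18 to 43.9 ± 5.25 CPM (1.15 ± 0.13, adjusted p = 9.24e-05) and from 46.7 ± 3.92 to 90.1 ± 5.43 CPM (0.95 ± 0.12, adjusted p = 0.000229). Of 11 actin and tubulin genes, the main clients of CCT, 4 were higher and 1 was lower (3 and 3 with the length trend removed). Tubb6 rose 13.9-fold, from 5.10 ± 0.567 to 71.2 ± 8.46 CPM (3.80 ± 0.15, adjusted p = 4.7e-07), and Tubg1 from 21.7 ± 3.71 to 45.4 ± 6.41 CPM (1.06 ± 0.16, adjusted p = 0.00055). Of 17 other mitochondrial chaperones and proteases, 7 were higher and 4 lower (41.2% and 23.5%, beside 28.8% and 30% of all genes tested). With the length trend removed, 3 were higher and 4 lower, beside 26% and 26.6% of all genes. Dnajc15, of the inner membrane import motor, rose from 60.0 ± 8.32 to 146 ± 35.4 CPM (1.28 ± 0.20, adjusted p = 0.000691), and the matrix protease Lonp1 fell from 83.9 ± 1.42 to 39.0 ± 3.49 CPM (-1.10 ± 0.12, adjusted p = 7.81e-05), the direction of the matrix HSP70 Hspa9.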

How the data were processed

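RNA of 6 libraries was analysed from 2 tables. The deposited exon reads are whole-number counts per gene symbol, without normalization. The other deposited table is a signal in which the authors scaled each library's counts by a size factor, and it served only for the check of titles and for an alternative (100% of its values gave whole reads at a tolerance of 0.1). STAR 2.7.2d and DESeq2 1.28.1 were used with the build mm10, per the submitters' processing notes. What each did, how reads were counted and whether by strand is not given in the sources used here, so reads of overlapping genes (Hspd1 with Hspe1, Dnaja1 with Smu1, Tcp1 with Mrpl18, Cct6a with Psph, Cct7 with Pradc1 and Cct8 with Usp16) cannot be told apart.

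The members and all lists were chosen with earlier results of these data known. All members are named, and of each further list the 2 tested genes with the smallest p. After 92 spike-in rows at 0 counts were left out, genes were kept with filterByExpr (minimum count 10), scaled with TMM and tested with edgeR 4.0.16 (R 4.3.3, quasi-likelihood test, group as sole term, Benjamini-Hochberg over 12423 genes, threshold 0.05). A standard error is the log2 fold change divided by the square root of F. CPM are TMM-scaled, given as mean ± SD, and 1 count was worth 0.0374 to 0.0655 CPM. Transcript lengths and gene spans are from GENCODE M21 (GRCm38, the assembly of mm10). The length of a gene is that of its longest transcript with the best principal rank, or of its longest transcript where none is ranked. Which transcripts were expressed was not tested, and values per kilobase and the length trend depend on this choice. The length trend was a loess curve (span 0.5) entered as an offset. On data simulated from these counts (12308 genes), 88% of 2-fold and 36% of 1.5-fold changes were recovered, with 2 false calls among 12108 unchanged genes. The simulation changed 100 genes per fold, all above a minimum count, and gave every gene the same dispersion. It held no shift of replicate 1 and few changed genes, so these rates need not hold for the real libraries. Libraries with the same replicate number deviated together (correlation of deviations from the group means 0.703, 0.222 and 0.506 for numbers 1, 2 and 3), each over 0.1, the bar set for taking the numbers as pairs. Replicates 2 and 3 were not told apart by this check, since FCM 2 with TCM 3 gave 0.581 and FCM 3 with TCM 2 gave 0.421, while pairs of a replicate 1 with another number lay between -0.689 and -0.4. The labels state no block and do not say what a number marks. The main fit therefore held group as its sole term, and the blocked fit is an alternative. Comparisons of libraries by their number are descriptions only. Alternatives were other scalings (DESeq2 size factors, library totals), DESeq2 1.42.0, other filters, the replicate block, leaving out libraries, the length trend and the titles of the normalized table.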

Additional observations from a re-analysis of the deposited data

How the results depend on the processing

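Of the 16 members called, 8 lost their call in at least 1 fit without a single library. The number of members higher in TCM was 4, and 2 under the stricter filter of 5 CPM in 3 libraries (where Hspa1a, Hspa1b and Hspb1 are not tested), 12 under the titles of the normalized table, and 2 to 5 when each library was left out. The number lower was 12, and 19 without the replicate 1 libraries of both groups and 4 under the titles of the normalized table. When each library was left out it was 6 to 14, with 6 without TCM replicate 2 and 7 without FCM replicate 3. Over all genes, 3726 of 12423 were lower, against 2818 of 12659 without TCM replicate 2 and 3242 of 12538 without FCM replicate 3. The fits without 1 library gave 2818 to 4199 lower and 2878 to 4030 higher over all genes. With the replicate block, 17 members were lower and 6 were higher. In this fit and in the one without the replicate 1 libraries, calls over all genes rose as well, as given above. The blocked fit changed the call of 7 members, each given above, and of no other member. The median log2 fold change of the members was -0.253, and -0.466 with library totals alone, -0.3 under the stricter filter and -0.302 without the replicate 1 libraries. Scaling by library totals moved the median of all genes from -0.0184 to -0.228 and the number of all genes higher from 3584 to 2364 (37.4% of calls, against 49%). Of the other chaperone genes, 17 in place of 29 were higher with library totals, 31 in place of 19 were lower without the replicate 1 libraries, and 12 to 23 were lower when each library was left out, 12 without TCM replicate 2 and without TCM replicate 3. The cause of these shifts was not tested. Of 431 values of single members over all alternatives that keep the count table's titles, 380 stayed on the same side of the threshold, 29 fell short of it and 22 passed it anew. The sign changed in 8 of the 431, all of members that passed neither before nor after: Cdc37 (0.0814 with the length trend removed), Chordc1 (4 fits, up to 0.21), Hspa1b (-0.0946 with library totals, -0.0375 without TCM replicate 3) and Hspd1 (-0.0885 with library totals). Depth limits Cryab, Hspb1, Hspa1a and Hspa1b, which had at most 79 counts in any library.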
